A study of Mus musculus with 18 samples.

Results

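Liver RNA was profiled on 18 Clariom D mouse arrays, 1 mouse per array, and the levels of 10 genes that move sterols, bile salts and organic anions across the hepatocyte membrane are described here. The genes were Abcg5, Abcg8, Abcb11, Abcb4, Abcc2, Abcc3, Abca1, Slc10a1, Slco1b2 and Slco1a1. They were found by symbol in the annotation of the array and each was represented by 1 transcript cluster, so 10 of the 65956 transcript clusters tested were members of the set. The array had no gap in the set and none of the 10 was lost to a filter, because no filter on low values was applied.

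The animals were male C57BL/6J mice received at 4 weeks of age, housed in 12 h light and 12 h dark with food at all times, and they formed 6 groups of 3. CD mice ate chow as the control diet for 11 weeks. A figure legend of the study says that the mice outside the NAD+ group received saline injections, which would include CD mice. The labels do not give the injection of CD mice, so whether HF and CD mice differed by diet alone was not checked here. HF mice ate a high-fat diet with 53% of its energy as fat for 8 weeks and then for 3 more weeks with a daily intraperitoneal injection of saline at ZT11. HFN mice had the same diet and schedule but received 50 mg/kg of NAD+, the oxidized form of nicotinamide adenine dinucleotide, in the injection. Livers were taken at ZT6, in the light and resting period, and at ZT18, in the dark and active period (ZT counts hours from lights on). The comparisons asked how the time of day, the high-fat diet and the NAD+ injections bore on these transcripts. Chow-fed mice given NAD+ were not analysed here.

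Hepatocytes are polarized cells. Their sinusoidal face takes bile salts and other organic anions from portal blood, and their canalicular face secretes bile. At the canaliculus, Abcg5 and Abcg8 pair as a heterodimer that exports cholesterol and plant sterols, Abcb11 is the bile salt export pump, Abcb4 moves phosphatidylcholine to the outer leaflet and Abcc2 exports conjugated organic anions such as bilirubin glucuronides. At the sinusoidal face, Slc10a1 takes up bile salts with sodium, Slco1b2 and Slco1a1 take up organic anions, Abcc3 exports conjugates back to blood and Abca1 loads cholesterol and phospholipid onto apolipoprotein A-I. The oxysterol receptor LXR is a known activator of Abcg5, Abcg8 and Abca1, and the bile acid receptor FXR of Abcb11.

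The tissue label was borne out by 9 hepatocyte markers, whose mean log2 signal was between 17.96 and 18.18 on every array. Of 7 measured bile duct markers 4 were below the negative-control probe sets, whose median was 4.58 to 5.01 per array. They included the defining genes Krt19 (4.24), Epcam and Cftr (3.88), while Slc10a2 was at 10.30. Whole liver was used, so fewer cells of a type and less RNA per cell cannot be told apart. HFN ZT18 replicate 1 stood apart, with a mean of 6.63 over 3 adipocyte markers against 3.88 to 4.12 over the arrays of the other 5 groups, and with 5.45 over 3 pancreas markers against 4.55 to 4.71. Where leaving this array out ended a call given for HFN livers or for an average that includes them, the value without it is given.

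The promoters of Abcg5 and Abcg8 are shown because both genes lie head to head and their promoter windows overlap. That of Abcc2 is shown because it was the third canalicular gene that fell at night. Promoter windows of 300 bases, 250 before and 50 after the start of the gene, were taken from RefSeq on GRCm38.p6 and matched 9 of the 10 genes, all but Abcc3. The start of Abcg5, on the minus strand of chromosome 17, and that of Abcg8, on the plus strand, were 110 bases apart, and their windows shared the 209 bases at chr17:84682962-84683170. Abcg8 had a further RefSeq window at an upstream start, chr17:84676052-84676351, without a match to the motifs searched. The stretch shared by Abcg5 and Abcg8 is printed on the plus strand. Matches to AGATAA, 1 form of the site bound by GATA factors, are in capitals on either strand. The window of Abcc2 at chr19:43782058-43782357, plus strand, is printed with its AGGTCA match, the core letters of nuclear receptor sites, in capitals.
Abcg5 and Abcg8: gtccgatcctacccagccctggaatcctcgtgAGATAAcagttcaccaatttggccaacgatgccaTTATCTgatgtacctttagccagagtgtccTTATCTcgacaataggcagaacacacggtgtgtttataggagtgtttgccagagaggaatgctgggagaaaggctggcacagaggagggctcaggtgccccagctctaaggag
Abcc2: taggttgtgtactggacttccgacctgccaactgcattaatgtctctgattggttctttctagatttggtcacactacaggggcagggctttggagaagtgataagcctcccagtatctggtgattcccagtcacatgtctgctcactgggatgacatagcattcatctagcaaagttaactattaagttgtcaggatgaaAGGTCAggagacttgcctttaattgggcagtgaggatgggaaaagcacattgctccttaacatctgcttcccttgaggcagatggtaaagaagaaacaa
The shared stretch held 3 matches to AGATAA, at -127, -93 and -63 bases from the start of Abcg8. From the start of Abcg5 they were at 12, -22 and -52, so 1 lies past that start. The motif was chosen after the sequence was seen. Of 32851 mouse windows of this length, 11.2% held at least 1 AGATAA on either strand and 0.107% held 3 or more. Among the 9 members with a window, only Abcg5 and Abcg8 had this exact string. Other strings with GATA at their core were not searched. The printed Abcc2 window holds TGATAA, and those of Abcb11 and Slco1b2 hold AGATAG, so GATA letters were not particular to the pair. AGGTCA was found in the windows of 5 members, Abcb11, Abcc2, Slc10a1, Slco1b2 and Slco1a1, and in 16.3% of all windows. The E-box CACGTG was found in Abca1 and in 7.15% of windows, and the D-box TTATGTAA and TTACGTAA, found in 0.938% and 0.119%, were in no window of the members. No overlap between matches of different motifs occurred in the printed stretches.

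Abcg5 and Abcg8 fell from day to night in all 3 groups. In CD livers the log2 signal of Abcg5 was 11.52, 11.17 and 11.95 at ZT6 and 9.75, 9.76 and 9.85 at ZT18. In HF livers it was 12.23, 12.53 and 12.53 at ZT6 and 10.20, 10.50 and 10.54 at ZT18. In HFN livers it was 12.46, 12.07 and 11.60 at ZT6 and 10.45, 10.78 and 11.21 at ZT18. All 3 night values were below all 3 day values in each group, and the CD livers at night were the lowest of the 18. Abcg8 was 12.10, 11.98 and 12.49 at ZT6 and 9.15, 9.93 and 10.28 at ZT18 in CD livers. In HF livers Abcg8 was 12.79, 13.37 and 13.15 by day and 9.98, 10.20 and 10.65 by night. In HFN livers it was 13.30, 12.66 and 12.37 by day and 10.25, 10.52 and 11.26 by night. The day and night values of Abcg8 again did not overlap in any group, while at night the groups overlapped each other.

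**Figure D1:**
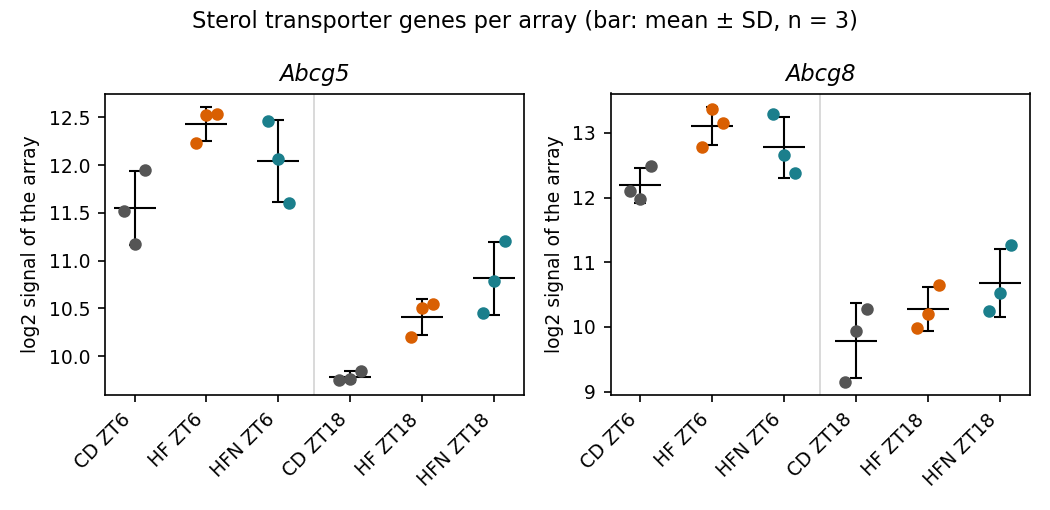
Log2 signal of Abcg5 (left) and Abcg8 (right) on each of the 18 arrays by group. Points are single mice, the bar is the mean and the error bar the SD of 3 mice. The ZT18 values, at most 11.21 for Abcg5 and 11.26 for Abcg8, lie below the ZT6 values of the same group.

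With the 3 groups averaged, ZT18 was lower than ZT6 by 1.67 ± 0.13 (SE) log2 units for Abcg5, which is 3.18-fold (adjusted p = 6.76e-06), and the log2 change of Abcg8 was -2.44 ± 0.19, or 5.43-fold (adjusted p = 4.72e-06). These p-values come from limma, fitted to all 18 arrays with a mean per group and adjusted by Benjamini-Hochberg over 65956 transcript clusters, and a gene was called at an adjusted p under 0.05 with a log2 change over 0.32 in either direction. The p-values set each difference against the spread between mice within groups, which limma shares over all groups. Within groups, both genes were also called, at adjusted p of 0.00397 and 0.00462 (CD), 0.000755 and 0.000762 (HF) and 0.0432 and 0.0125 (HFN) for Abcg5 and Abcg8. The 95% interval of the Abcg8 change ran from -3.10 to -1.71 (CD), from -3.52 to -2.13 (HF) and from -2.79 to -1.40 (HFN).

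The HFN calls were the least secure. Abcg8 in HFN livers missed the threshold without HFN ZT6 replicate 1 (change -1.84, limma adjusted p = 0.0893) or without HFN ZT18 replicate 2 (-2.02, adjusted p = 0.0638), and without HFN ZT18 replicate 1 it was -1.88 (adjusted p = 0.0404). Abcg5 in HFN livers kept its call in 4 of 18 fits that left out an array, those without CD ZT6 replicate 2 or 3, HFN ZT6 replicate 3 or HFN ZT18 replicate 3. Over the 18 fits its change was -1.45 to -1.02 (adjusted p from 0.0288 to 0.219), and with the replicate block the call was lost (adjusted p = 0.0671). Without HFN ZT18 replicate 1 it was -1.05 (adjusted p = 0.104). Fits on 6 arrays alone gave adjusted p of 0.163 and 0.201 in CD and 0.426 and 0.231 in HFN livers for Abcg5 and Abcg8, and kept both calls in HF livers.

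Within groups, the mice with more Abcg5 also had more Abcg8. Deviations of the 2 genes from their group means correlated at Pearson's r = 0.79 (exact two-sided permutation within groups, p = 8.57e-05 over 46656 rearrangements) and Spearman's rho = 0.88 (exact permutation p = 4.29e-05) over 18 arrays. The correlation was 0.92 within ZT6 (exact permutation p = 0.00926) and 0.75 within ZT18 (exact permutation p = 0.0231), and 0.74 without the 2 arrays farthest from the median. Adjusted over these 3 correlations, the p-values were 0.000257, 0.0139 and 0.0231. The negative-control signal of the arrays moved with both genes, with r = 0.67 for the deviations of Abcg5 and 0.75 for those of Abcg8. With that signal taken out of both, r was 0.59. The correlation was not particular to the pair. Of the 45 pairs of members, 3 had higher correlations of deviations, Abcc2 with Abcc3 (0.91), Abcg8 with Abcc2 (0.88) and Abcg8 with Abcc3 (0.82), and Abcg5 with Abcc2 had 0.77, against a median of 0.34 over all pairs.

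**Figure D2:**
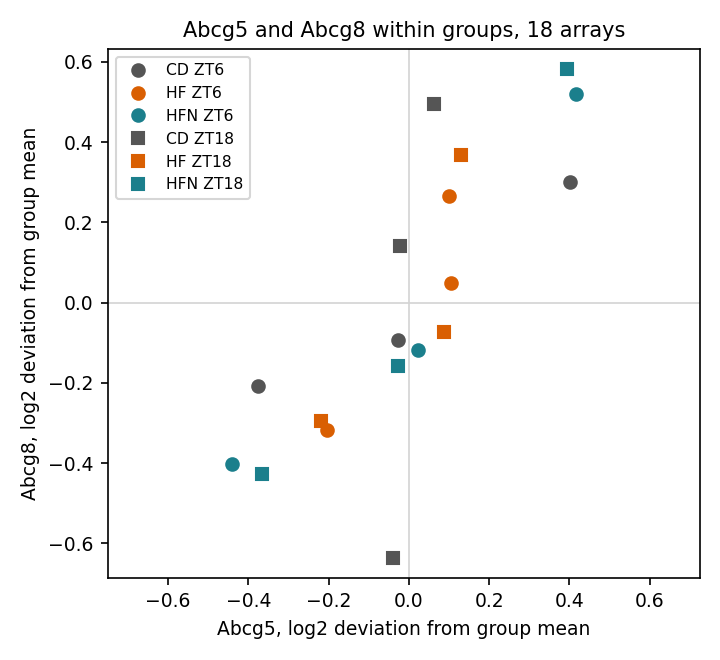
Deviation of each array from its group mean, Abcg5 on the horizontal and Abcg8 on the vertical axis, both in log2 units. Circles are ZT6 and squares ZT18, and colours mark CD, HF and HFN livers. The points rise together (r = 0.79, 18 arrays).

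The transcripts most like the pair over the 18 arrays were named by a fixed rule, as a description. For Abcg5 they were Rgs16 (r = 0.943), Arsa (0.921), Pik3ap1 (0.920), Cebpa (0.917) and Phka2 (0.913). For Abcg8 they were Phka2 (0.951), Arsa (0.947), Dbp (0.941), Sgk2 (0.939) and Rbms1 (0.936), so Arsa and Phka2 were on both lists. Dbp, a clock-controlled transcription factor, and Rgs16, a regulator of G protein signalling, had day-to-night log2 changes of -4.55 and -5.90 with the groups averaged. The arrays share the contrast of time, which sets much of these coefficients. By deviations from group means, where time plays no part, the nearest were Golgb1 (r = 0.894) and Nbr1 (0.876) for Abcg5 and Map7 (0.919) and Chkb (0.915) for Abcg8. The deviations of Abcg5 and Abcg8 moved with the negative-control signal (r = 0.67 and 0.75), and its part in these coefficients was not tested.

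Of the bile exporters, Abcc2 fell at night and Abcb11 and Abcb4 did not pass the test. Abcc2 was 16.36, 16.19 and 16.69 at ZT6 and 15.50, 16.002 and 16.08 at ZT18 in CD livers. In HF livers it was 16.50, 16.96 and 16.86 by day and 15.38, 15.38 and 15.38 by night. In HFN livers it was 16.41, 16.22 and 16.10 by day and 14.89, 15.28 and 15.58 by night. The night values were below the day values in every group, and the 3 HF night livers had an SD of 0.0029. With the groups averaged, Abcc2 was lower at ZT18 by 1.97-fold (log2 change -0.98 ± 0.11, limma adjusted p = 0.000164). HF livers changed by -1.39 ± 0.19 (adjusted p = 0.00283) and HFN livers by -0.99 ± 0.19 (adjusted p = 0.0493), whereas the -0.55 ± 0.19 of CD livers did not pass (adjusted p = 0.435). The near-equal HF night values lower the spread that limma shares over the groups, so these p-values may be too small. In HF livers the call held in 7 alternative fits (limma adjusted p at most 0.0199).

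The HFN call of Abcc2 remained in 4 of 18 fits that left out an array, those without CD ZT6 replicate 3, HF ZT6 replicate 1, CD ZT18 replicate 1 or HFN ZT18 replicate 3. Without HFN ZT18 replicate 1 the change was -0.81 (adjusted p = 0.108). The deviations of Abcc2 moved with the negative-control signal (r = 0.81), and with that signal as a covariate limma called Abcc2 in CD livers too (-0.72, adjusted p = 0.0178).

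Abcb11, the bile salt export pump, was 15.53 ± 0.27 (SD, n = 3) at ZT6 and 15.12 ± 0.19 at ZT18 in CD livers. It was 15.40 ± 0.15 and 15.29 ± 0.04 in HF and 15.35 ± 0.55 and 14.90 ± 0.31 in HFN livers. The averaged change of -0.32 (95% interval -0.60 to -0.04) did not pass the test (limma adjusted p = 0.347). Abcb4, the phospholipid transporter, had an averaged change of -0.09 (95% interval -0.33 to 0.15, adjusted p = 0.891).

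At the sinusoidal face, Slc10a1 was lower in CD livers at night. Its log2 signal was 18.18, 18.31 and 18.18 at ZT6 and 17.28, 17.96 and 17.18 at ZT18 in CD livers, a change of -0.75 ± 0.15 (1.68-fold, limma adjusted p = 0.0451). The 3 CD night livers were the lowest of the 18 arrays. In HF and HFN livers the night values were 18.16 to 18.18, and the changes were -0.01 and -0.10 (adjusted p = 0.994 and 0.982). On 11 of the 18 arrays Slc10a1 had 1 identical value of 18.181, and Slco1b2 had 1 identical value of 16.967 on 8 arrays. Repeated values of this kind, on 3 or more arrays, were found in 39.9% of transcript clusters with a mean of 18 to 19 and in 0.166% of those under 9, so changes of the brightest transcripts were measured less finely. They also lower the spread that limma shares over the groups, so the p-values of Slc10a1 may be too small. The CD call of Slc10a1 remained in 2 of 18 fits that left out an array, those without HFN ZT6 replicate 1 or CD ZT18 replicate 2 (adjusted p from 0.00027 to 0.185). It was lost after quantile normalization (-0.65, adjusted p = 0.167), with an intensity trend and robust prior (adjusted p = 0.139), with the 6 arrays alone (adjusted p = 0.764) and with the replicate block (adjusted p = 0.0554).

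The other sinusoidal genes did not pass the test by time of day. Slco1b2 had an averaged change of -0.21 ± 0.06 (adjusted p = 0.124) and Slco1a1 one of -0.39 ± 0.20 (adjusted p = 0.518). Slco1a1 was 16.49, 16.42 and 15.14 in HFN livers at night, where replicate 3 was the lowest of the 18 arrays. Abca1 had -0.10 ± 0.12 (adjusted p = 0.883), with every array between 11.35 and 12.30. Abcc3 had 0.24 ± 0.24 (adjusted p = 0.861) and varied most within groups. Its signal was 11.34, 12.68 and 12.83 in CD livers at ZT18, and the deviations of Abcc3 followed the negative-control signal (r = 0.79), whose 5 highest arrays all had an Abcc3 signal of at least 12.33. HFN ZT18 replicate 3 reached 12.75 with a lower negative-control median, and the part of this signal in the spread of Abcc3 was not tested.

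In counts, 3 of 10 members fell and none rose at night in each group. The genes were Abcg5, Abcg8 and Slc10a1 in CD livers, where 0.214% of all transcript clusters were called lower. They were Abcg5, Abcg8 and Abcc2 in HF livers, where 0.421% were called lower, in HFN livers, with 0.0591%, and in the average of the groups, with 0.785% lower and 0.814% higher. The 10 genes had a median change of -0.38 (CD), -0.22 (HF) and -0.37 (HFN), against 0.01, 0.00 and 0.01 over all transcript clusters. Day and night values did not overlap for 5 members (CD), 3 (HF) and 4 (HFN), against 9.98%, 20.7% and 11.3% of all transcript clusters.

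**Figure D3:**
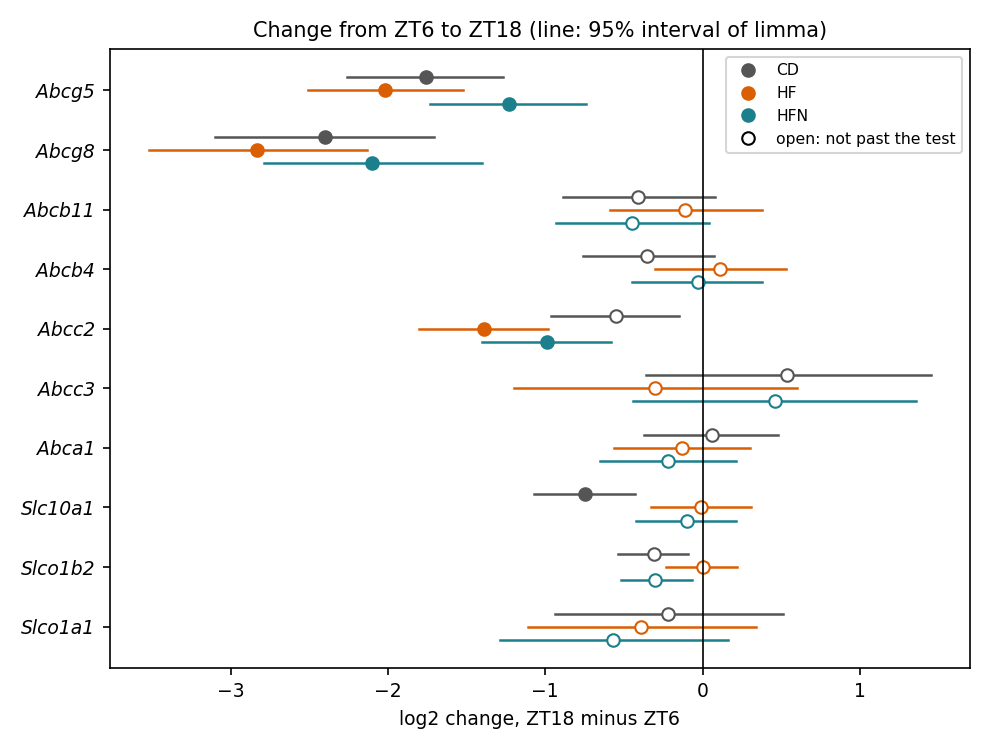
Log2 change from ZT6 to ZT18 of the 10 genes in CD, HF and HFN livers, with the 95% interval of limma. Filled points passed the test and open points did not. Abcg5 and Abcg8 lie between -2.83 and -1.23 in all 3 groups.

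The change from day to night was compared between groups, and no member and no transcript cluster passed limma's test for any of the 3 interactions (0% called). At an unadjusted p under 0.05 with the same minimum change, 5330 of 65956 passed for HF against CD, 3297 for HFN against HF and 3217 for HFN against CD. The members among them were Abcc2, whose change differed by -0.84 ± 0.27 log2 units for HF minus CD (adjusted p = 0.484), Slc10a1, with differences of 0.74 ± 0.21 for HF against CD (adjusted p = 0.45) and 0.65 ± 0.21 for HFN against CD (adjusted p = 0.736), and Abcg5, with 0.79 ± 0.33 for HFN against HF (adjusted p = 0.797). A fall called in one group and not in another was therefore not shown to differ between them. Of 7 alternative fits, 1 called the Abcc2 interaction of HF against CD, that of limma with array weights. The difference was -1.06 to -0.23 over those 7 fits, and none of the 18 fits that left out an array called it.

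By diet, Abcb4 was higher in HF livers. At ZT18 its log2 signal was 11.89, 11.62 and 12.12 in CD livers, 12.95, 13.16 and 12.79 in HF livers and 12.20, 12.59 and 13.07 in HFN livers. At ZT6 it was 12.11, 12.01 and 12.55 (CD), 12.82, 12.88 and 12.86 (HF) and 12.75, 12.65 and 12.55 (HFN). The HF and the HFN values were above all CD values of the same time. HF exceeded CD by 1.09 ± 0.19 at ZT18 (2.13-fold, limma adjusted p = 0.0196), by 0.63 ± 0.19 at ZT6 (adjusted p = 0.525) and by 0.86 ± 0.14 with the times averaged (1.82-fold, adjusted p = 0.00884).

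The averaged call of Abcb4 held in all 18 fits that left out an array and in the other fits run with an adjusted p. The call at ZT18 was lost without CD ZT18 replicate 2 (0.96, adjusted p = 0.108), HF ZT18 replicate 1 (1.10, adjusted p = 0.0672) or HF ZT18 replicate 2 (1.00, adjusted p = 0.125), and with the 6 arrays alone (adjusted p = 0.13). HFN against CD gave 0.59 ± 0.14 with the times averaged (adjusted p = 0.0661), and 0.69 without HFN ZT18 replicate 1, where it passed (adjusted p = 0.0125).

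Abcg5 and Abcg8 had higher means in both high-fat groups. The group means of Abcg5 ran in the order HF ZT6 (12.43), HFN ZT6 (12.04), CD ZT6 (11.55), HFN ZT18 (10.81), HF ZT18 (10.41) and CD ZT18 (9.78). Neighbours of one time in this order did not pass the test, whereas HFN against CD at ZT18, which are 2 places apart, did, at 1.03 ± 0.23 (2.04-fold, limma adjusted p = 0.0492). With the times averaged, Abcg5 was higher by 0.76 ± 0.16 in HFN than in CD (adjusted p = 0.0449), and HF against CD gave 0.76 ± 0.16 (adjusted p = 0.0605). The corresponding differences of Abcg8 were 0.74 ± 0.23 (adjusted p = 0.18) and 0.70 ± 0.23 (adjusted p = 0.3), and its groups ran in the same order from 13.10 in HF livers at ZT6 to 9.79 in CD livers at ZT18.

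These Abcg5 calls lay close to the threshold. At ZT18 the HFN against CD call remained in 5 of 18 fits that left out an array, those without CD ZT6 replicate 2 or 3, HFN ZT6 replicate 1 or 3 or HFN ZT18 replicate 1 (1.21 and adjusted p = 0.0263 without the last). The averaged call remained in 4, those without CD ZT6 replicate 3, HFN ZT6 replicate 3, CD ZT18 replicate 1 or HFN ZT18 replicate 1 (0.85 and adjusted p = 0.0206 without the last). Both calls were lost with the replicate block (adjusted p = 0.0627 and 0.059), with an intensity trend and robust prior and with the compared groups alone (adjusted p = 0.209 and 0.152). For HF against CD, limma called Abcg5 after quantile normalization (0.86, adjusted p = 0.0158) and with the negative-control covariate (0.77, adjusted p = 0.00914), among 5 of 7 alternative fits, but not with the replicate block (adjusted p = 0.0854) or the intensity trend.

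Slc10a1 differed by diet at night, where the CD livers were low. HFN exceeded CD by 0.71 ± 0.15 at ZT18 (1.63-fold, limma adjusted p = 0.0361), and HF exceeded CD by 0.70 ± 0.15, which just missed the threshold (adjusted p = 0.0502). The CD ZT18 values of 17.28, 17.96 and 17.18 did not overlap those of either group. All 3 HFN values at ZT18 were the repeated 18.181 (SD 0), whereas the CD livers at ZT18 had an SD of 0.42. The SE comes from a spread shared by all groups, so these p-values may be too small. The HFN call remained in 8 of 18 fits that left out an array, the 3 without a CD ZT6 array, the 3 without an HFN ZT6 array and those without HF ZT6 replicate 1 or CD ZT18 replicate 2, with an adjusted p from 0.000779 to 0.152. Without HFN ZT18 replicate 1 it was 0.71 and did not pass (adjusted p = 0.0593). It was also lost after quantile normalization, with the negative-control covariate, with an intensity trend and robust prior and with the compared groups alone (adjusted p up to 0.352). The Kupffer cell and macrophage list, with all 10 markers measured, moved with Slc10a1 within groups (r = 0.75 of deviations). Slc10a1 had its repeated value on 11 of the 18 arrays, so this r rests on few arrays, mainly CD livers at ZT18. Other members moved with other lists, such as Abcc3 (0.84) and Abcc2 (0.73) with the hepatocyte markers. Of these markers, Apoa1 and Apob barely varied within groups, and Alb and Cyp2e1 lay at the ceiling of the array values. The coefficients with this list may therefore rest on few genes. The deviations of Abcc3 and Abcc2 also followed the negative-control signal (r = 0.79 and 0.81), and the part of that signal here was not tested. The Kupffer cell and macrophage list had means of 7.36 to 8.39 in CD livers at ZT18, 7.97 to 8.10 in HF and 8.02 to 8.73 in HFN livers. Its part in the result was not tested.

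**Figure D4:**
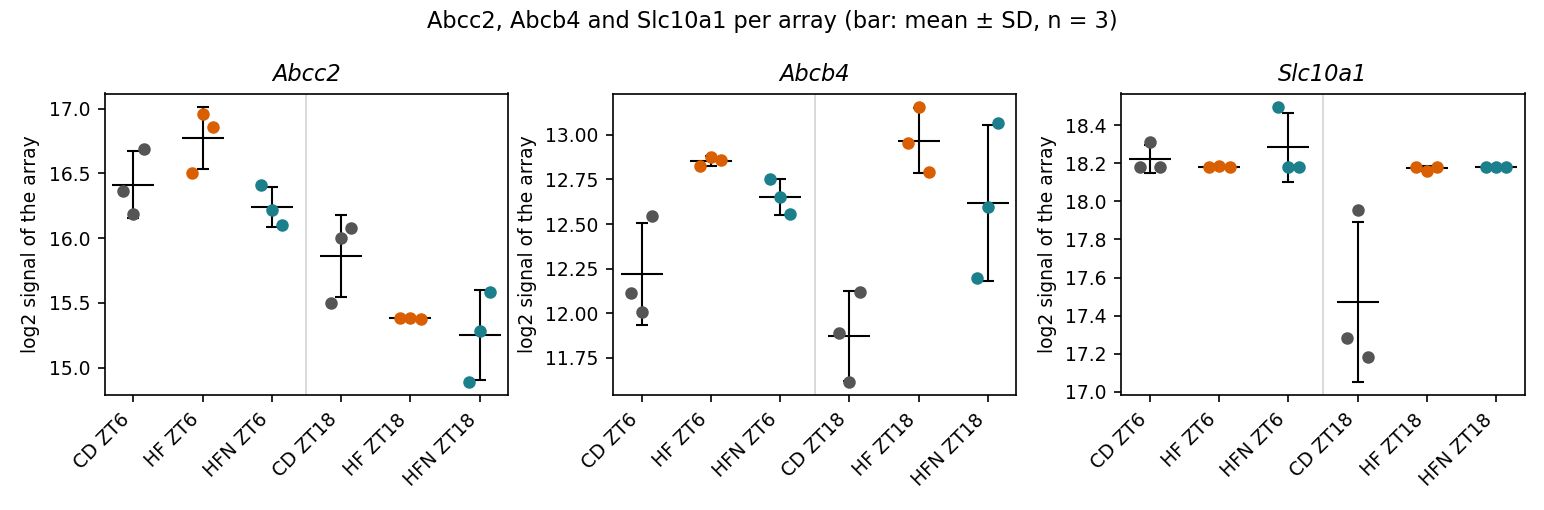
Log2 signal of Abcc2, Abcb4 and Slc10a1 on each of the 18 arrays by group, with the mean and SD of 3 mice. The vertical axes do not start at 0 and differ between panels. Abcc2 is lower at ZT18, Abcb4 is higher in HF than in CD livers, and Slc10a1 is below 18 only in CD livers at ZT18.

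No other member passed a test of diet. At ZT6 none of the 10 was called for HF against CD, where 0.044% of all transcript clusters were, or for HFN against CD, with 0.0318%. At ZT18, 1 member (Abcb4) was higher in HF than in CD, against 0.475% of all, and 2 (Abcg5 and Slc10a1) were higher in HFN than in CD, against 0.835%. With the times averaged, 1 member was higher in HF (Abcb4), against 0.412% of all, and 1 in HFN (Abcg5), against 0.573%. None was lower. HF and CD values at ZT18 did not overlap for 5 members, against 15.8% of all transcript clusters. The diet comparisons share the CD arrays, so their values are not independent of each other.

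Between HFN and HF livers no transcript cluster was called by limma at ZT6, at ZT18 or with the times averaged (0% in each), and 2685, 1851 and 1186 passed an unadjusted p under 0.05 with the same minimum change. Among these the only member was Abcc2, at ZT6 (-0.53 ± 0.19, adjusted p = 0.658) and with the times averaged (-0.33 ± 0.13, adjusted p = 0.842). The averaged HFN minus HF difference was 0.01 (95% interval -0.34 to 0.36) for Abcg5 and 0.04 (-0.45 to 0.53) for Abcg8. It was -0.27 (-0.57 to 0.02) for Abcb4, -0.22 (-0.56 to 0.12) for Abcb11 and 0.06 (-0.17 to 0.28) for Slc10a1. Without HFN ZT18 replicate 1 it was 0.10 (-0.25 to 0.45) for Abcg5, 0.14 (-0.37 to 0.65) for Abcg8 and -0.17 (-0.43 to 0.09) for Abcb4, and again no member passed. The intervals are wide, so the NAD+ and saline groups were not shown to be alike.

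**Figure D5:**
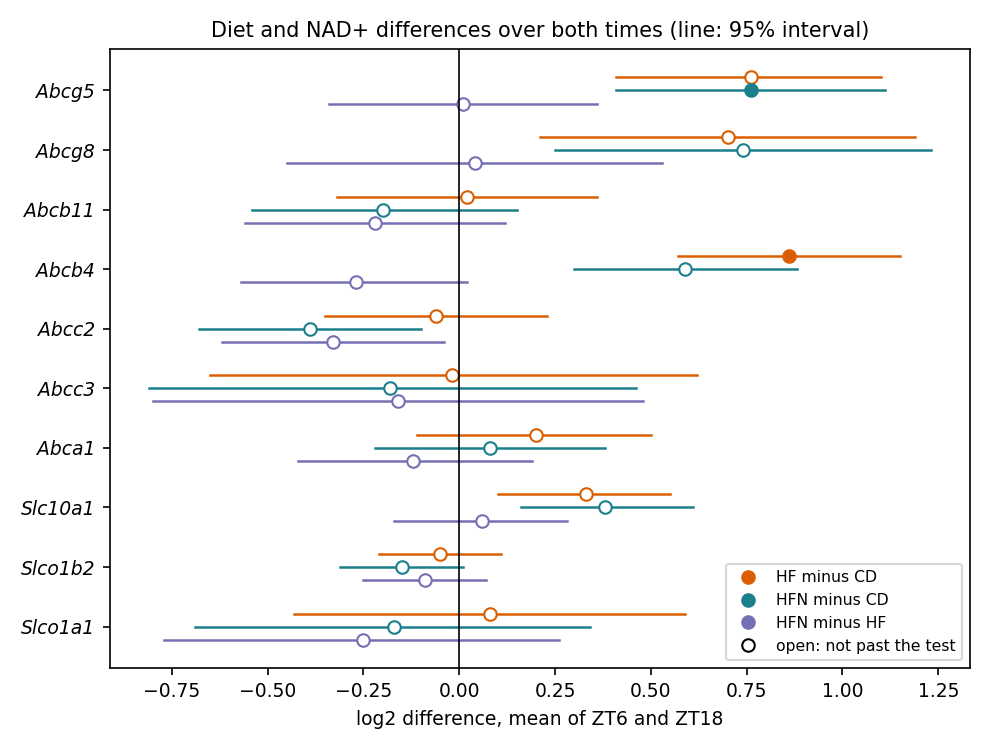
Differences between groups in log2 units, averaged over ZT6 and ZT18, for the 10 genes, with the 95% interval of limma. Filled points passed the test. Abcb4 passed for HF minus CD (0.86) and Abcg5 for HFN minus CD (0.76), and all HFN minus HF points are open.

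Genes around these transporters were counted in 6 further lists, with 76 of 86 distinct genes measured. Of 21 measured hepatocyte membrane transporters outside the set, 1 rose and 1 fell at night with the groups averaged, against 0.814% and 0.785% of all transcript clusters. Abcg2, an exporter of urate and xenobiotics, rose by 0.48 ± 0.12 (limma adjusted p = 0.0467), and Atp7b, the copper exporter, changed by -0.33 ± 0.08 (adjusted p = 0.0432). Without HFN ZT18 replicate 1 neither passed, at 0.49 (adjusted p = 0.0655) and -0.26, which is under the minimum change. The median of the list was -0.02, against 0.01 over all transcript clusters. By diet, Slco2a1, a prostaglandin transporter, was lower on the high-fat diet, at -1.69 ± 0.24 for HF minus CD (adjusted p = 0.00383) and -1.86 ± 0.24 for HFN minus CD (adjusted p = 0.00165), the 1 gene of the list called lower in each, where 0.108% and 0.177% of all transcript clusters were. Abcg2 was higher with the high-fat diet and saline (HF minus CD 0.71 ± 0.14, adjusted p = 0.0379).

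Of 14 measured nuclear receptors and factors of sterol and bile transport, 4 fell at night with the groups averaged and none rose, against 0.785% and 0.814% of all transcript clusters, with a list median of -0.14. They were Cebpa (-0.87 ± 0.10, limma adjusted p = 0.000239), a factor of hepatocyte differentiation, Rxra (-0.64 ± 0.11, adjusted p = 0.00648), the common partner of LXR, FXR and PPARα, Ppara (-0.60 ± 0.14, adjusted p = 0.0346) and Nr5a2 (-0.55 ± 0.12, adjusted p = 0.033). Ppara did not pass without HFN ZT18 replicate 1 (-0.53, adjusted p = 0.0557). Foxa2 was the 1 gene of this list called by diet (HF minus CD 0.72 ± 0.15, adjusted p = 0.0451), where 0.412% of all transcript clusters were called higher. Of 10 measured LXR-regulated genes none was called by time of day, but Scd1, Apoe and Apoc1 spanned less than the smallest change that could be called, so 7 could have been. Lpcat3, a phospholipid acyltransferase, was higher with the times averaged for HF minus CD (0.47 ± 0.09, adjusted p = 0.0268) and for HFN minus CD (0.49 ± 0.09, adjusted p = 0.0177), while Cyp7a1, also on this list, was lower for HFN minus CD (-1.75 ± 0.38, adjusted p = 0.0482, and 0.0677 without HFN ZT18 replicate 1).

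Of 13 measured genes of bile acid synthesis and conjugation, 3 rose and 2 fell at night with the groups averaged, against 0.814% and 0.785% of all transcript clusters (list median 0.20). Cyp8b1, the sterol 12-hydroxylase of cholic acid synthesis, had the largest change, 1.55 ± 0.22 (limma adjusted p = 0.00118), and Baat, which conjugates bile acids, rose by 0.59 ± 0.12 (adjusted p = 0.0142), while Amacr (-0.69 ± 0.10, adjusted p = 0.00169) and Hsd3b7 (-0.48 ± 0.11, adjusted p = 0.0452) fell. Hsd3b7 did not pass without HFN ZT18 replicate 1 (-0.43, adjusted p = 0.0792). Cyp7a1, the first enzyme of the classic pathway, had ZT18 levels of 15.86 ± 1.08 (CD), 12.61 ± 0.33 (HF) and 12.98 ± 0.13 (HFN; SD, n = 3). The difference from CD was -3.24 ± 0.54 for HF (adjusted p = 0.0132) and -2.87 ± 0.54 for HFN (adjusted p = 0.0202). Cyp7b1 of the alternative pathway was also lower with the times averaged, at -2.26 ± 0.44 for HF minus CD (adjusted p = 0.0326) and -2.03 ± 0.44 for HFN minus CD (adjusted p = 0.0472). Hsd17b4, a peroxisomal enzyme of side-chain shortening, was higher with the times averaged, at 0.66 ± 0.10 for HF minus CD (adjusted p = 0.0092) and 0.67 ± 0.10 for HFN minus CD (adjusted p = 0.00585). In all, 1 gene of the list was higher and 2 were lower in each of these averaged comparisons. Of all transcript clusters, 0.412% were called higher and 0.108% lower for HF minus CD, and 0.573% and 0.177% for HFN minus CD.

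Of 10 measured genes of sterol esterification and lipoprotein cholesterol, 2 rose and 2 fell at night with the groups averaged, against 0.814% and 0.785% of all transcript clusters. Apoa1 and Apob varied too little to be called. Npc1, which releases cholesterol from lysosomes, changed by -1.21 ± 0.19 (limma adjusted p = 0.00274) and Nceh1, a cholesteryl ester hydrolase, by -0.35 ± 0.07 (adjusted p = 0.0194). Lipa, the lysosomal acid lipase, rose by 0.57 ± 0.12 (adjusted p = 0.0188) and Mttp, which loads lipid onto apolipoprotein B, by 0.36 ± 0.07 (adjusted p = 0.0181). Mttp and Nceh1 were higher in HF than in CD livers, by 0.61 ± 0.09 (adjusted p = 0.00602) and 0.86 ± 0.09 (adjusted p = 0.000291), and in HFN livers Lipa was too (HFN minus CD 0.73 ± 0.14, adjusted p = 0.0267). Of 11 measured genes of canalicular scaffold and trafficking, 1 rose at night with the groups averaged, against 0.814% of all transcript clusters. It was the tight junction gene Cgn (0.42 ± 0.08, adjusted p = 0.00878), and no gene of this list was called by diet.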

How the data were processed

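Liver RNA of 18 mice was hybridised to Clariom D mouse arrays. The authors used Transcriptome Analysis Console with default parameters. The deposited table holds log2 signals of 72688 entries with a ceiling of 19.93. How probes were summarized, and on which build, is not given in the sources used here. Control entries (6732) were left out and 65956 transcript clusters tested. The annotation gave 1 symbol to 30638 clusters, several to 2176 and none to 33142, and no member was among the latter. Array medians were 4.29 to 4.42, and no 2 arrays were duplicates (highest r 0.996).

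One mean per group was fitted with limma 3.58.1 in R 4.3.3 (12 residual degrees of freedom, 2.27 added by the prior), without further normalization. Calls required p under 0.05 after Benjamini-Hochberg adjustment over every cluster tested and a log2 change over 0.32. An exact permutation test of 3 against 3 cannot go below p = 0.1. Alternatives were the replicate block, the 32978 brightest clusters, quantile normalization, an intensity trend with robust prior, the compared groups alone, an unadjusted p, no fold minimum, the negative-control median as covariate, array weights and leaving out each array. The number of arrays limits the precision.

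Every member is named, with the cluster of highest mean per symbol. Other lists were counted, naming in each comparison at most 4 called genes, by size of change, or else the 2 of lowest p. Only some of these are described. For Abcg5 and Abcg8, the 5 transcripts of highest correlation were listed. Members and lists were chosen with earlier results of these data known. Promoters came from RefSeq on GRCm38.p6.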

Additional observations from a re-analysis of the deposited data

How the results depend on the processing

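No called value of a member changed direction under any alternative run. Of 4150 values of a member in a comparison under an alternative, 4009 kept their side of the threshold, 109 lost the call and 32 gained it, and 130 uncalled values changed sign. Most of the 4150 were not called in the main fit and had no call to lose. The 109 losses therefore all fell on the few called values, and the 4009 does not measure how firm the calls were. With the replicate number as a block, 1 member was called for HFN against CD at ZT18 and 0 with the times averaged; same-numbered arrays all correlated over 0.1 in 2 of 15 pairings of groups, so the numbers were not taken to pair the mice. Among the 32978 brightest clusters, 2 were called for HF against CD at ZT18, 2 with the times averaged and 2 for HFN against CD averaged. Quantile normalization gave 2 for HF against CD averaged and 1 for HFN against CD at ZT18. With an intensity trend and robust prior, 1 was called by time in HFN livers, and 0 for HFN against CD at ZT18 and 0 averaged. The compared groups alone gave 0 by time in CD, 0 in HFN, 0 for HF against CD at ZT18, 2 averaged, 0 for HFN against CD at ZT18 and 0 averaged. At an unadjusted p, HF against CD gave 3 at ZT6, 4 at ZT18 and 4 averaged, HFN against CD 2, 5 and 5, HFN against HF 1 at ZT6 and 1 averaged, and the interactions gave 2 for HF minus CD, 1 for HFN minus HF and 1 for HFN minus CD. The negative-control covariate gave 3 for HF against CD averaged and 2 for HFN against CD averaged. Array weights gave 3 for HF against CD at ZT18, 2 averaged, 4 for HFN against CD at ZT18, 2 averaged and 1 for the interaction of HF against CD. The fold minimum moved no count. Leaving out 1 array gave 2 to 3 called by time in CD, 3 to 3 in HF, 0 to 3 in HFN livers and 3 to 4 averaged, 0 to 2 for HF against CD at ZT18 and 1 to 2 averaged, and 0 to 2 for HFN against CD at ZT18 and 0 to 2 averaged. The cause of these moves was not tested, except that fewer arrays were fitted with the compared groups alone. Averaging clusters per symbol was not run, since each gene has 1.

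The 3 mice per group limit the precision. The calls in HFN livers, the call of Slc10a1 by time in CD livers and the calls by diet, other than Abcb4 averaged, lay near the threshold. The brightest transcripts were measured coarsely.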
